A study of Mus musculus with 8 samples.

Results

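The genes of lactate and pyruvate use were followed in single mouse oocytes: 10 named genes of the 37224 in the count table. They were taken from a list of names, with no threshold on a value, but the list was chosen with earlier results of these data known. They include genes of the lactate dehydrogenases A and B (Ldha, Ldhb) and of monocarboxylate transporters of the plasma membrane (Slc16a1, Slc16a6, Slc16a7). The others encode the mitochondrial pyruvate carrier (Mpc1, Mpc2) and 3 components of the pyruvate dehydrogenase complex (Pdha1, Pdhb, Dlat). All 10 were matched in the table. Of these, 9 had enough counts to be tested and Ldha did not.

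The study profiled metaphase II (MII) oocytes, which are mature eggs arrested before fertilization, 1 oocyte per library. Of the 8 libraries, 4 (the knockout) came from mice named Setd1bGdf9cKO, a conditional knockout of Setd1b, and the other 4 came from mice labelled as control. Setd1b encodes a histone H3 lysine 4 methyltransferase, and the Gdf9 promoter, when it drives Cre, is active in growing oocytes. Mice of both groups had been superovulated, and the labels give no age, strain, control alleles or mouse of origin for an oocyte. The p-values therefore measure the spread between these oocytes, some of which may share a female.

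A cumulus-enclosed mouse oocyte takes up pyruvate, supplied by the cumulus cells around it, and uses it as its main fuel, while glucose is used poorly. Lactate dehydrogenase interconverts lactate and pyruvate, and its B subunit is the form known from oocytes and early embryos. Some monocarboxylate transporters carry lactate and pyruvate across the plasma membrane. The Mpc1 and Mpc2 proteins together carry pyruvate into the mitochondrion, and the pyruvate dehydrogenase complex turns it into acetyl-CoA for the tricarboxylic acid cycle.

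Library totals were 9488899 to 11313502 counts in the knockout and 11029602 to 13519404 in the control. The knockout libraries had 11190 to 12153 genes with at least 10 counts, against 9913 to 10714 in the control, and 5.22 to 6.97% of mitochondrial counts against 3.47 to 5.39%. The part of these differences in the results below was not tested. All 15 oocyte markers were tested, with Gdf9, Oosp1 and Bmp15 the most abundant by CPM, and 6 were called higher and 3 lower. The shares called over all tested genes, for this list and the next 2, were 13.6% higher and 12.2% lower. Of 24 markers of cumulus and granulosa cells, the cells that surround an oocyte, 10 had no count, among them Amh, Inha, Foxl2 and Ptx3. The summed level of that list was 146 to 213 CPM (counts scaled to library size and composition) in the knockout and 239 to 302 in the control, most of it from Esr2, Cyp19a1 and Gata4, and 2 of its 6 tested genes were called lower. Of 20 markers of blood, stroma, endothelium and oviduct, 11 had no count, among them Ptprc, Col3a1 and Krt8. The list summed to 44.5 to 77.5 CPM against 102 to 136, with 1 of 5 tested genes called higher and 2 lower. By group mean, knockout against control, Pecam1 was at 33.7 against 59.9 CPM, Epcam at 2.97 against 32.9 and Tek at 14.3 against 8.95. Pecam1 and Epcam were the 2 called lower, and Cd68, at 7.88 against 1.35 CPM, was the 1 called higher. The Pecam1 call was kept in 2 of 8 fits that left out a library. Both lists were thus at lower summed levels in the knockout libraries, though Cd68 and Tek (not called) of the second list had higher means there.

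Setd1b itself was at 4.42, 5.05, 2.96 and 3.54 CPM in the 4 knockout oocytes, in replicate order, and at 10.7, 12.8, 9.22 and 10.9 CPM in the control, so the groups did not overlap. Its log2 fold change, knockout over control throughout, was -1.44 ± 0.41 (SE, n = 4 and 4; adjusted p = 0.0221, edgeR's quasi-likelihood test). That call was lost without knockout replicate 3 or control replicate 2, where the adjusted p was at most 0.0540, and with library totals only (-1.04, adjusted p = 0.0887).

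Among the 9 tested genes 3 passed the test (adjusted p under 0.05 over 11066 genes), and these, Ldhb, Slc16a1 and Slc16a6, were all higher in the knockout. Among all tested genes, 13.6% were called higher and 12.2% lower. None of the 9 was called lower by edgeR, none had an unadjusted p under 0.05 in that direction, and DESeq2 called 0 lower and 4 higher, where it called 13.1% of all genes lower and 15.3% higher. Libraries of the 2 groups did not overlap for 4 of the 9, the same 3 and Mpc2, all higher in the knockout, where 17.7% of all tested genes had that pattern. The median log2 fold change of the 9 was 0.39, against 0.10 over all tested genes. Slc16a6 passed the count filter only through the knockout libraries, and the same holds for genes of the lists below that were near 0 in the control, so such counts only describe a list. The lists were also chosen with earlier results of these data known, so the comparisons with all tested genes are descriptive.

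**Figure D1:**
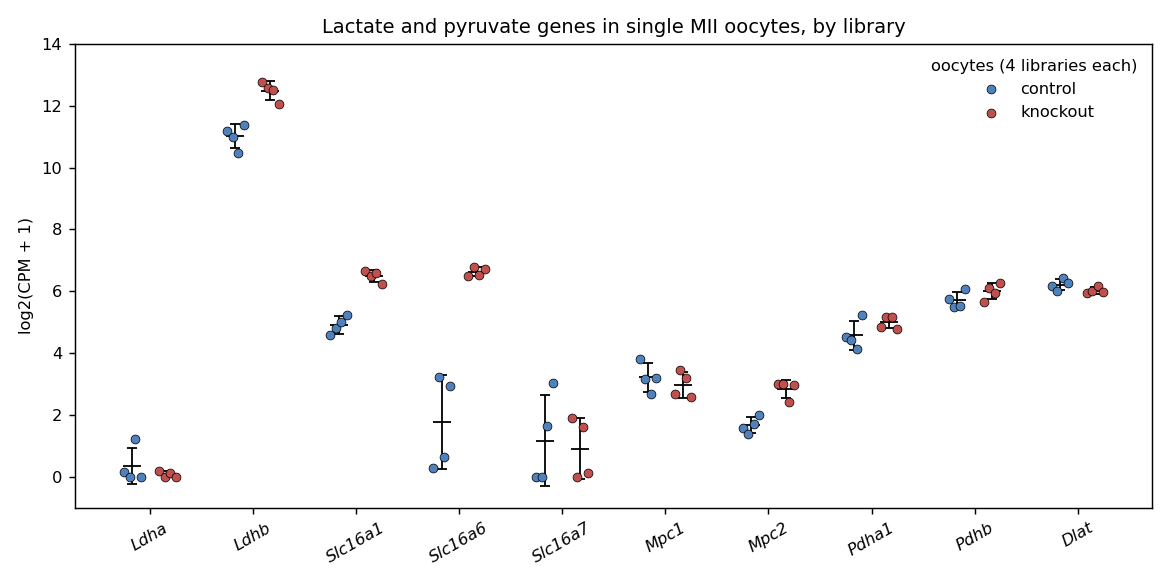
Level of each of the 10 genes as log2(CPM + 1), 1 point per library, with the mean and SD of each group of 4 libraries. Ldhb lies far above the others in both groups, the Slc16a1 and Slc16a6 points of the 2 groups are apart, and Ldha lies near 0 in 7 of the 8 libraries.

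Ldhb, which encodes the heart-type subunit of lactate dehydrogenase, lies on chromosome 6 (mm10, 142490249 to 142507957, minus strand, 9 exons, gene ENSMUSG00000030246), and Ldha, the muscle-type subunit, on chromosome 7 (46841475 to 46855627, plus strand, ENSMUSG00000063229). The bases upstream of their annotated starts are shown because the 2 genes encode the same enzyme activity and differed most in level, and Slc16a1 is added as the called transporter for which a window was found. Each is the 250 bases before a RefSeq transcript start (GRCm38.p6), 5′ to 3′ along the gene, with CG dinucleotides in capitals. The intervals are chr6:142507958-142508207 on the minus strand for Ldhb, chr7:46845554-46845803 on the plus strand for the first of 2 Ldha starts, and chr3:104638414-104638663 on the plus strand for Slc16a1.
Ldhb: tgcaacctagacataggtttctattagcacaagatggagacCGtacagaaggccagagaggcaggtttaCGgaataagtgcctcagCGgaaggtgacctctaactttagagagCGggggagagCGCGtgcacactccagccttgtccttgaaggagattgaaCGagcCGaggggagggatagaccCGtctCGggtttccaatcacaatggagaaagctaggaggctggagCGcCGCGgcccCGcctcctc
Ldha: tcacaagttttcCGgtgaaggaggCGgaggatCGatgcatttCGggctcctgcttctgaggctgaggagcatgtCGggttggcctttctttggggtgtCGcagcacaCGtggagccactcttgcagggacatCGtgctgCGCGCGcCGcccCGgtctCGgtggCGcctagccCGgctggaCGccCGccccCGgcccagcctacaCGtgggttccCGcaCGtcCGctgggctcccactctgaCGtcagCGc
Slc16a1: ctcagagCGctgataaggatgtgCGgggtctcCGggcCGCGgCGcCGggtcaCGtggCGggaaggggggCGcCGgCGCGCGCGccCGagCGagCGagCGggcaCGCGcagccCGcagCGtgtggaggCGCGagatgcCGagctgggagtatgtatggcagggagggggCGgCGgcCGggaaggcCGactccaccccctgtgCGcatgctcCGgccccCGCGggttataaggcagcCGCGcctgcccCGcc
Setd1b belongs to a family whose mark is laid down at CpG-rich promoters, which is the reason CG sites are marked. In the 300-base window that also holds the first 50 transcribed bases, CG occurred 17 times for Ldhb, 30 times for this Ldha start and 42 times for Slc16a1. Of all 32851 RefSeq windows of this length, 31.4% held at least 17, 11.7% at least 30 and 3.03% at least 42, and the median was 7. Searched on both strands, the GC box GGGCGG occurred 3 times in the Ldha window and once in that of Slc16a1, with no match for Ldhb, and 35.7% of all windows held it. The E-box CACGTG, whose letters include a CG, occurred 2 times for Ldha and 1 time for Slc16a1, against 7.15% of windows. CCAAT occurred 1 time for Ldhb, against 37.4% of windows. Windows were found for 8 of the 10 genes, not for Slc16a6 and Slc16a7. By first window, Slc16a1 and Mpc1 (39) held the most CG and Dlat (18) and Ldhb the fewest, so a called and an uncalled gene stood at each end. This order depends on the window: the second Ldha window held 13 CG, fewer than Ldhb, with no GC box or E-box. The second Mpc1 window held 18 CG. These matches describe the letters only.

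The level of Ldhb was 7041, 6163, 5790.1 and 4277 CPM in the knockout and 2341, 2038, 1435 and 2686 CPM in the control. Every knockout oocyte lay above every control oocyte, the closest pair being knockout replicate 4 and control replicate 4. Ldhb rose by 1.45 ± 0.22 on the log2 scale (95% interval 0.98 to 1.93; adjusted p = 0.000825, edgeR's quasi-likelihood test), 2.74-fold. Its transcripts made up 0.485 to 0.856% of all counts in the knockout and 0.136 to 0.215% in the control. Ranked by CPM per kilobase of gene length (RPKM), it was the 5th, 6th, 8th and 12th most abundant gene in the knockout oocytes and the 35th to 43rd in the control. After the trend of fold change with gene length was taken out, its log2 fold change was 0.75 (adjusted p = 0.0185, edgeR), while the median of all genes moved from 0.10 to -0.30.

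Ldha counts were 2, 0, 1 and 0 in the knockout and 1, 0, 16 and 0 in the control, 20 in all against 377293 for Ldhb. Control replicate 3 alone was above the level that a count of 0 allows (3 counts, or 0.225 to 0.330 CPM per library). Ldhb accounted for at least 99.93% of the summed RPKM of Ldha, Ldhb and Ldhc in each of the 8 libraries. Gapdh, a glycolysis enzyme that cells use generally, had 1 count over all 8 libraries in this table, and 22.6% of its transcript 75-mers also occur in transcripts of other genes, against 2.69% for Ldha. Whether the low Ldha count reflects the oocyte or the counting was not tested.

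A processed pseudogene, Gm5514 on chromosome 19, shares 12.6% of the 75-mers of Ldhb transcripts, and its counts were 8.28 to 9.55% of those of Ldhb in each library. It rose by 1.52 on the log2 scale (adjusted p = 0.000662, edgeR), and reads of the 2 genes cannot be told apart in the shared stretch. Adding its counts to Ldhb left the gene called.

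Among the other lactate dehydrogenases, Ldhc, known from the male germ line, had 45, 15, 20 and 31 counts in the knockout and none in the 4 control libraries. Its summed level was at least 33.4-fold higher, against 3 counts over the control group, yet its mean of 1.45 RPKM stayed far below the 3706 RPKM of Ldhb. It passed the filter only through the knockout libraries. Ldhd, the mitochondrial enzyme of D-lactate, was at 9.27 ± 1.90 CPM in the knockout and 7.64 ± 3.44 in the control (SD, n = 4), a log2 difference of 0.27 (adjusted p = 0.689, edgeR).

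The plasma membrane transporters held the largest relative change of the listed genes. Slc16a1 (chromosome 3, 104638668 to 104658462, ENSMUSG00000032902) encodes MCT1, a proton-coupled carrier of lactate and pyruvate found in many tissues. Its level was 99.1, 89.6, 96.5 and 74.3 CPM in the knockout and 23.1, 26.8, 31.4 and 36.8 CPM in the control. The lowest knockout oocyte was above the highest control oocyte. The knockout values had a coefficient of variation of 12.4%, where the median over tested genes was 28.1%. The median tested gene was at a lower level, 15.6 CPM over all libraries, so the 2 are not matched in level. Slc16a1 rose by 1.61 ± 0.22 on the log2 scale (95% interval 1.14 to 2.08; adjusted p = 0.000424, edgeR's quasi-likelihood test), 3.04-fold.

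Slc16a6 (chromosome 11, 109450855 to 109473598, ENSMUSG00000041920) encodes MCT7, a member of the same family whose substrates are less settled and include ketone bodies. In the knockout it was at 88.9, 109, 91.2 and 105 CPM. In the control it was at 0.220, 8.30, 0.577 and 6.60 CPM, or 2, 104, 7 and 66 counts, so that controls 1 and 3 were near or under the level a count of 0 allows and controls 2 and 4 were well above it. All 4 knockout oocytes lay far above all 4 controls. The rise was 4.63 ± 0.76 on the log2 scale (95% interval 2.98 to 6.29; adjusted p = 0.00136, edgeR). Leaving out each library in turn gave log2 fold changes of 4.25 to 5.32, all called. Slc16a6 passed the count filter only through the knockout libraries, so these calls describe the rise and are no separate test of it. Without strand in the counting, its 3′ neighbour Amz2 matters: it lies on the opposite strand and shares 1052 exon bases with Slc16a6. Amz2 was itself higher in the knockout, at 23.0 ± 2.11 against 8.98 ± 5.06 CPM (SD, n = 4; log2 fold change 1.36, adjusted p = 0.0227, edgeR). Its level was below that of Slc16a6 in the knockout and above the 3.92 CPM of Slc16a6 in the control. The Amz2 call was lost without knockout replicate 2 or 4 or control replicate 1, 2 or 3 (adjusted p up to 0.0593) and with the length trend removed (0.0736). How many reads of the overlap were of either gene was not tested.

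Slc16a7, which encodes MCT2, the high-affinity pyruvate carrier, was detected in some oocytes of each group. It was at 2.77, 0, 2.07 and 0.093 CPM in the knockout and 0, 0, 2.14 and 7.20 CPM in the control. The groups overlapped, and the log2 difference of -0.91 ± 1.60 (95% interval -4.40 to 2.58; adjusted p = 0.713, edgeR) leaves large differences either way possible. Its sign rested on control replicate 4, without which it was 0.76.

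Per length, the 3 transporters summed differently in the 2 groups. Slc16a1 made up 72.2 to 99.1% of their summed RPKM in the control and 43.9 to 54.2% in the knockout, while the share of Slc16a6 was 0.856 to 21.9% in the control and 44.1 to 56.1% in the knockout. Neither pair of ranges overlapped.

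**Figure D2:**
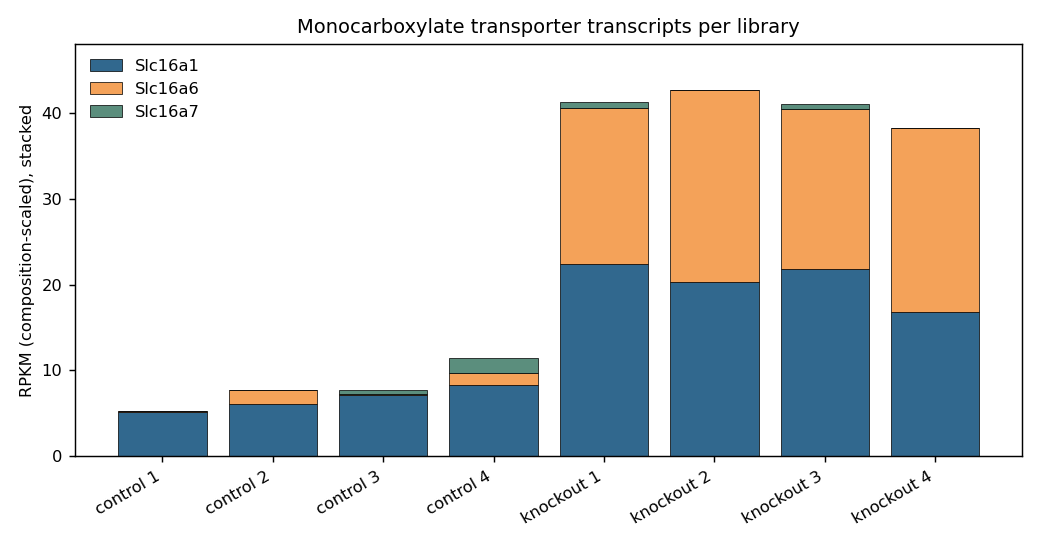
Composition-scaled RPKM of Slc16a1, Slc16a6 and Slc16a7, stacked for each of the 8 libraries. The knockout bars are built of about equal parts of Slc16a1 and Slc16a6, and the lower control bars mostly of Slc16a1.

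Of 15 further monocarboxylate transporters and chaperones, 9 were tested. Bsg and Slc16a4 were called higher and none lower (edgeR; 2 lower at an unadjusted p under 0.05, and DESeq2 called 0 lower), where 13.6% and 12.2% of all tested genes were. With the length trend removed, 1 was called higher and 2 lower, Emb and Slc16a10, against 8.33% and 23.4% of all genes. Their median log2 fold change was -0.51, below the 0.10 of all tested genes. Slc16a4, which encodes MCT5, had 164, 26, 17 and 59 counts in the knockout and none in the control, at least 80.0-fold higher against 3 counts over the control group. It too passed the filter only through the knockout, so its call was fixed by that choice. Bsg, which encodes basigin, the chaperone that MCT1 needs to reach the membrane, rose by 1.19 ± 0.37 on the log2 scale (adjusted p = 0.0343, edgeR), from 12.8 ± 3.90 to 29.2 ± 12.7 CPM (SD, n = 4), with overlapping groups. The Bsg call was lost without knockout replicate 1 or 2 or control replicate 1, 2 or 3, with adjusted p up to 0.120, and also with the length trend removed (0.46, adjusted p = 0.337). Emb, the alternative chaperone embigin, was at 37.4 ± 13.8 CPM against 75.7 ± 46.1, a log2 difference of -1.02 (adjusted p = 0.104, edgeR, and -1.67 with adjusted p = 0.0199 with the length trend removed). Slc16a3, the MCT4 of glycolytic tissues, had no count. The most abundant transporter of the family in the control was Slc16a10, an aromatic amino acid carrier named here after its values were seen, at 41.1 ± 5.70 RPKM in the control and 28.9 ± 9.94 in the knockout (adjusted p = 0.124, edgeR). Its log2 fold change was -0.82 with the length trend removed (adjusted p = 0.0201, edgeR), and without knockout replicate 4 the adjusted p was 0.0163.

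The 2 subunits of the mitochondrial pyruvate carrier, which work as a pair, were both low in the counts assigned to the genes themselves. For Mpc1 this leaves out its pseudogene, described below. Mpc2 (chromosome 1, 165461037 to 165481214, listed as Brp44 in the authors' deposited table) was at 6.97, 7.01, 4.31 and 6.88 CPM in the knockout and 1.98, 1.60, 2.31 and 3.00 CPM in the control. These groups did not overlap, but its log2 difference of 1.50 ± 0.52 (95% interval 0.36 to 2.64) had an adjusted p of 0.0537 by edgeR's quasi-likelihood test and was not called. It was called by DESeq2 (adjusted p = 0.00771), and by edgeR without control replicate 4 (0.0486). The Mpc2 counts ran from 18 to 93 per library.

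Mpc1 (chromosome 17, 8282904 to 8297661) was at 5.47, 9.87, 8.26 and 4.93 CPM in the knockout and 13.1, 8.06, 5.44 and 8.20 CPM in the control. The groups overlapped, with a log2 difference of -0.28 ± 0.44 (95% interval -1.25 to 0.68; adjusted p = 0.675, edgeR). Its processed pseudogene Mpc1-ps on chromosome 12 held 5.21 to 7.98 times the counts of Mpc1 in each library, so most reads of this transcript may have been counted there. Summed over both, the level was 40.9 to 61.3 CPM in the knockout and 45.4 to 102 CPM in the control, and these ranges overlapped too. The ratio of Mpc2 to Mpc1 RPKM was 0.286 to 0.764 in the knockout and 0.083 to 0.232 in the control, without the pseudogene.

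The pyruvate dehydrogenase complex has 3 catalytic parts: E1, built of Pdha1 and Pdhb, E2, encoded by Dlat, and E3, encoded by Dld. None of the 3 listed subunits was called. Pdha1 (chromosome X, 160122209 to 160138413), the catalytic E1 alpha subunit, was at 28.0, 35.3, 35.2 and 26.8 CPM in the knockout and 21.8, 20.5, 16.6 and 37.0 CPM in the control, where replicate 4 was above all knockout oocytes. Its log2 difference was 0.39 ± 0.29 (95% interval -0.25 to 1.02; adjusted p = 0.363, edgeR). Pdha1 shares 603 exon bases with Map3k15 on the opposite strand, which had 110 to 184 counts in the knockout libraries and 2 to 52 in the control. Map3k15 was called higher (log2 fold change 2.44, adjusted p = 0.0290, edgeR), a call lost without any 1 of the knockout replicates or control replicate 1, and its part in the Pdha1 counts was not tested.

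Pdhb (chromosome 14, 8165991 to 8172992), the E1 beta subunit, was at 49.6, 68.7, 60.6 and 76.1 CPM in the knockout and 52.6, 44.4, 45.4 and 66.5 CPM in the control. Its groups overlapped, and the log2 difference was 0.29 ± 0.22 (95% interval -0.19 to 0.77; adjusted p = 0.366, edgeR). Dlat (chromosome 9, 50634633 to 50659780), which carries the lipoyl arm that hands acetyl groups to coenzyme A, was at 60.3, 63.2, 71.1 and 62.0 CPM in the knockout and 71.5, 63.7, 84.3 and 76.3 CPM in the control. Here the log2 difference was -0.21 ± 0.18 (95% interval -0.60 to 0.19; adjusted p = 0.435, edgeR). Their signs depended on the scaling: with library totals only, Dlat was at 0.18, Pdha1 at 0.80 (adjusted p = 0.0504, edgeR) and Pdhb at 0.69, called higher (adjusted p = 0.0271, edgeR) in a setting that called 21.5% of all genes higher and 4.61% lower. With the length trend removed, Pdha1 was at -0.05, Pdhb at -0.40 and Dlat at -0.55, the last with an adjusted p of 0.0458 (edgeR).

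Other parts of the complex moved in both directions. Dld, the E3 subunit, which the complexes for 2-oxoglutarate and branched-chain keto acids also use, was at 353, 365, 360.0 and 372 CPM in the knockout and 104, 104, 109 and 221 CPM in the control. It rose by 1.43 ± 0.25 on the log2 scale (adjusted p = 0.00176, edgeR), and with the length trend removed the value was 0.75 (adjusted p = 0.0616). Pdhx, which anchors E3 to the core, was at 66.1, 71.8, 83.8 and 72.8 CPM in the knockout and 213, 266, 265 and 247 CPM in the control. The 2 groups were far apart, and Pdhx fell by 1.75 ± 0.16 on the log2 scale (adjusted p = 5.28e-05, edgeR), with a larger drop of 2.13 when the length trend was removed. Set against Dlat by RPKM, Dld stood at 11.0 to 13.1 in the knockout and 2.81 to 6.31 in the control, and Pdhx at 1.36 to 1.46 and 3.70 to 5.18.

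Of the 6 other subunits and lipoate enzymes, all were tested, 3 rose and 1 fell, against 13.6% and 12.2% of all tested genes, with a median log2 fold change of 1.31. Lipt1, a lipoyl transferase, rose by 1.46 ± 0.37 on the log2 scale (adjusted p = 0.0127, edgeR), and lost its call without knockout replicate 2 (0.0506). With the length trend removed, none of the 6 was called higher and 1 was called lower, where 8.33% and 23.4% of all genes were. Of the 7 kinases and phosphatases that switch the complex off and on, 5 were tested, none rose (edgeR; 0 higher at an unadjusted p under 0.05, and 0 by DESeq2) and 1 fell. DESeq2 called 2 lower, and 3 were called lower with the length trend removed. Over all tested genes, 12.2% were called lower by edgeR, 13.1% by DESeq2 and 23.4% with the length trend removed. The shares called higher were 13.6% by edgeR and 15.3% by DESeq2. The gene that fell was Pdp1, the phosphatase that activates E1, which fell by 1.23 ± 0.27 on the log2 scale (adjusted p = 0.00616, edgeR), from 147 ± 39.3 to 62.6 ± 20.2 CPM (SD, n = 4). The kinase Pdk1 was at 27.5 ± 2.11 CPM against 46.6 ± 17.0 (log2 difference -0.76, adjusted p = 0.0630, edgeR, and 0.0203 without control replicate 4). Pdk1 was called lower by DESeq2 (adjusted p = 0.0217) and with the length trend removed (-0.86, adjusted p = 0.0280, edgeR). The phosphatase Pdp2 was at 2.64 ± 1.39 CPM against 1.04 ± 0.22, with overlapping groups (adjusted p = 0.202, edgeR). Pdk4 had no count and Pdk2 had 1.

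**Figure D3:**
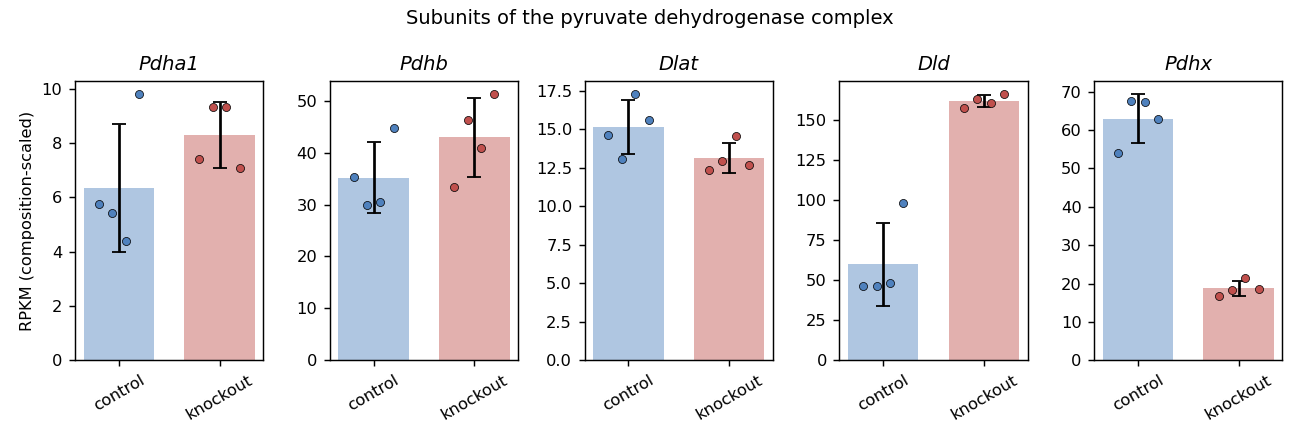
RPKM of the pyruvate dehydrogenase subunits Pdha1, Pdhb, Dlat, Dld and Pdhx, 1 point per library, with bars for the group mean and lines for its SD (n = 4), each panel on its own axis from 0. The groups are apart for Dld, higher in the knockout, and for Pdhx, lower in the knockout, and overlap for Pdha1, Pdhb and Dlat.

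Within each group the 10 genes spanned a wide range per length, with Mpc1 ranked here without its pseudogene. In the control, mean RPKM was 1354 for Ldhb, 35.2 for Pdhb, 15.1 for Dlat, 6.67 for Slc16a1, 6.35 for Pdha1 and 4.18 for Mpc1, with Slc16a6, Slc16a7, Mpc2 and Ldha under 1. Libraries of neighbours in that order were apart for Ldhb and Pdhb, for Pdhb and Dlat, for Dlat and Slc16a1 and for Mpc1 and Slc16a6. They overlapped from Slc16a1 through Pdha1 to Mpc1, and again among the 4 lowest genes. In the knockout the order was Ldhb at 3706, Pdhb at 42.9, Slc16a1 at 20.3, Slc16a6 at 20.2, Dlat at 13.1, Pdha1 at 8.29, Mpc1 at 3.43, Mpc2 at 1.65, Slc16a7 at 0.317 and Ldha at 0.0201. Only 2 pairs of neighbours overlapped there, Slc16a1 with Slc16a6 and Slc16a7 with Ldha. The ratio of Ldhb to Pdhb RPKM was 53.2 to 134 in the knockout and 29.9 to 43.4 in the control, and that of Slc16a1 to Dlat 1.32 to 1.81 against 0.357 to 0.532.

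Around the listed genes, glycolysis enzymes were sparsely detected, with 10 of 24 tested. Of these 3 rose, none was called lower (edgeR; 0 at an unadjusted p under 0.05, and 0 by DESeq2), and the median log2 fold change was 1.33. Of all tested genes, 13.6% were called higher and 12.2% lower. DESeq2 called 4 of the list higher, where it called 15.3% of all genes higher. With the length trend removed, 2 of the 10 were called higher and 0 lower, against 8.33% and 23.4% of all genes. Pkm, pyruvate kinase, which makes pyruvate from phosphoenolpyruvate, rose by 2.43 ± 0.37 (adjusted p = 0.000925, edgeR), at 235, 186, 108 and 89.8 CPM against 31.1, 33.4, 36.6 and 13.3 in the control. Aldoa, an aldolase, rose by 1.29 ± 0.26 (adjusted p = 0.00412, edgeR), a call lost with the length trend removed (0.69, adjusted p = 0.0551). Eno1, enolase, rose by 2.13 ± 0.62 (adjusted p = 0.0262, edgeR), a call lost without knockout replicate 1, 2 or 4 or control replicate 3 (adjusted p up to 0.0858). Among 12 glucose transporters 4 were tested and none was called by edgeR or DESeq2, nor had an unadjusted p under 0.05. The one of smallest p, Slc2a9, was at 1.60 ± 1.14 CPM against 5.52 ± 6.25, followed by Slc2a12 at 14.2 ± 8.73 against 10.5 ± 7.71 and Slc2a10 at 4.88 ± 3.14 against 5.66 ± 3.74.

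Of 8 other enzymes that make or use pyruvate, 4 were tested, of which 1 rose and 1 fell. The shares called over all tested genes were 13.6% higher and 12.2% lower. The median log2 fold change of the 4 was -0.38. Removing the length trend left 1 called higher and 2 lower, against 8.33% and 23.4% of all genes. The mitochondrial malic enzyme Me2 rose by 1.29 ± 0.22 on the log2 scale (adjusted p = 0.00152, edgeR), from 31.6 ± 6.12 to 77.4 ± 10.5 CPM (SD, n = 4). The cytosolic malic enzyme Me1 fell by 0.61 ± 0.15 (adjusted p = 0.0101, edgeR), from 389 ± 29.2 to 254 ± 22.6 CPM, and with library totals only its value was -0.23 (adjusted p = 0.300). Gpt2, the mitochondrial alanine aminotransferase, was at 4.42, 14.01, 19.6 and 25.3 CPM in the knockout and 29.7, 35.4, 30.7 and 33.3 CPM in the control. Its groups did not overlap, but the log2 difference of -1.03 ± 0.42 was not called (adjusted p = 0.0945, edgeR). It was called lower with the length trend removed (-1.31, adjusted p = 0.0416, edgeR).

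The tricarboxylic acid cycle list, which burns the acetyl-CoA that the complex makes, had 16 of 17 genes tested, of which 9 rose and none was called lower (edgeR; 1 lower at an unadjusted p under 0.05, and 1 by DESeq2). Of all tested genes, 13.6% were called higher and 12.2% lower. The median log2 fold change of the list was 1.17. The list was led by p by 3 of the 4 succinate dehydrogenase subunits. Sdhd, a membrane anchor, was at 178, 184, 121 and 136 CPM in the knockout and 11.1, 11.8, 9.72 and 9.09 in the control, a rise of 3.89 ± 0.23 (adjusted p = 4.69e-06, edgeR). Sdhb, the iron-sulfur subunit, rose by 3.38 ± 0.40 (adjusted p = 0.000196, edgeR) and Sdhc, the other anchor, by 2.10 ± 0.20 (adjusted p = 5.29e-05, edgeR). With the length trend removed, 6 of the 16 were called higher and 3 lower, against 8.33% and 23.4% of all genes.

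The NADH shuttles, which pass to the mitochondrion the electrons of NADH that lactate dehydrogenase forms in the cytosol, had 7 of 8 genes tested. Of these 2 rose and none was called lower (edgeR; 0 at an unadjusted p under 0.05, and 0 by DESeq2), with a median log2 fold change of 0.48. Among all tested genes 13.6% were called higher and 12.2% lower. The removal of the length trend left 1 of the 7 called higher and 2 lower, against 8.33% and 23.4% of all genes. Got2, the mitochondrial aspartate aminotransferase, rose by 1.80 ± 0.44 (adjusted p = 0.0109, edgeR). Its cytosolic partner Got1 rose by 1.61 ± 0.48 (adjusted p = 0.0299, edgeR), but kept its call only when the library left out was control replicate 1, and had an adjusted p of up to 0.0719 otherwise, and 0.143 with the length trend removed. Slc25a11, the malate carrier, was at 2.88 ± 1.86 CPM against 7.79 ± 4.88 (log2 difference -1.43, adjusted p = 0.160, edgeR), and was called lower with the length trend removed (-2.16, adjusted p = 0.0381, edgeR).

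**Figure D4:**
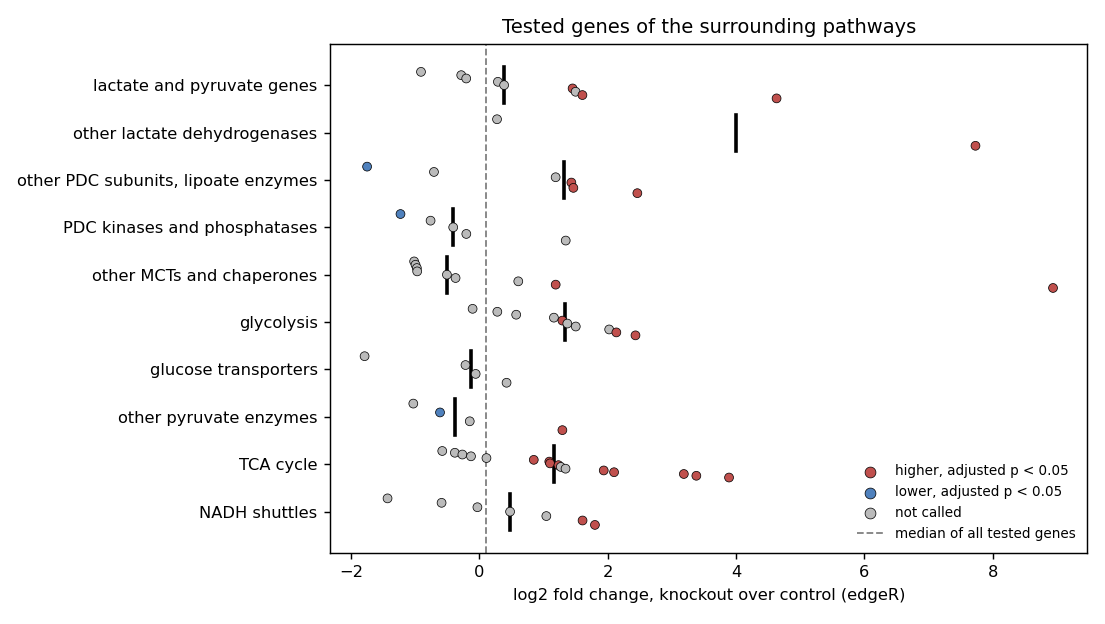
Log2 fold change, knockout over control, of each tested gene of the 10 lists, with the median of a list as a black bar and that of all tested genes as a dashed line. The cycle list has 9 genes called higher, and the points of Ldhc and Slc16a4, whose control libraries are all at 0, depend on the fit and are no measured fold.

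The authors' deposited table of called genes, whose largest adjusted p is 0.009996, lists 4 of the 10 genes. In it the log2 fold change before shrinkage was 1.41 for Ldhb (adjusted p = 4.52e-08), 1.56 for Slc16a1 (2.21e-11), 4.60 for Slc16a6 (5.4e-05) and 1.46 for Mpc2 (0.00503), by the authors' DESeq2. The same table gives 3.17 for Slc16a6 after shrinkage. Mpc2 is thus called there and was not called by edgeR.

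Under the other settings the fold changes of Ldhb, Slc16a1 and Slc16a6 stayed above 0 with an adjusted p under 0.05. For Slc16a6, which passed the count filter only through the knockout libraries, these calls only describe the rise. Relative to the median of all genes, Ldhb was at 1.35 in the test above, 1.38 with library totals only and 1.05 with the length trend removed. The same 3 values were 1.51, 1.51 and 1.54 for Slc16a1 and 4.53, 4.54 and 4.56 for Slc16a6.

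**Figure D5:**
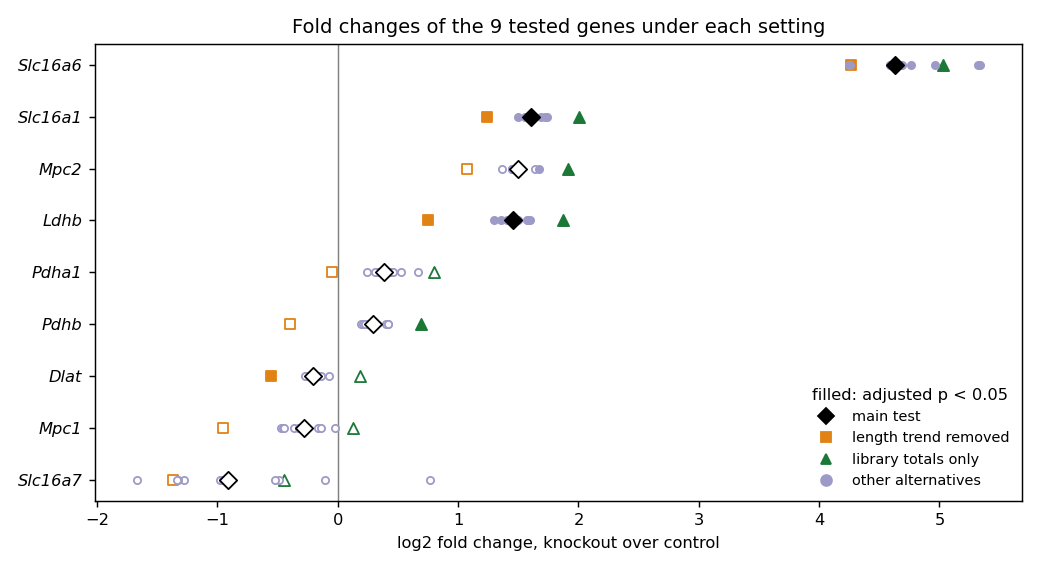
Log2 fold change of the 9 tested genes under each setting, filled where the adjusted p is under 0.05. Ldhb, Slc16a1 and Slc16a6 are filled and right of 0 throughout, while Pdha1, Pdhb, Dlat, Mpc1 and Slc16a7 have points on both sides of 0.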

How the data were processed

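Reads of 8 single-oocyte libraries were amplified with a SMARTer Ultra Low RNA kit that starts from poly(A) tails and sequenced as 75-bp single reads, per the labels' protocols. No strand and no molecular identifiers are kept, so a level reflects abundance and tail length. The intervals of the log2 fold changes use the standard error of edgeR's quasi-likelihood test, so they include the spread between oocytes. Bounds that rest on counts alone, such as the lowest folds given for Ldhc and Slc16a4, cover counting error only. Alignment with GSNAP to mm10, counting with featureCounts 1.4.4 and testing with DESeq2 1.3.79 are named in the submitters' processing notes. The deposited counts per gene used Ensembl release 69, a minimum mapping quality of 1 and no strand setting, per the file headers. The authors' deposited comparison table gives log2 fold changes, p-values, a standard error and test score, normalized signal (counts over a size factor) and RPKM, for 2709 genes. It was used for the 4 listed genes it holds.

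Genes were tested with edgeR 4.0.16 (R 4.3.3) by its quasi-likelihood test on the deposited counts, with TMM scaling, filterByExpr, genotype as the only term and Benjamini-Hochberg adjustment over 11066 genes. CPM and RPKM use the composition-scaled totals, with factors of 1.07 to 1.22 in the knockout and 0.800 to 0.947 in the control. Of the 37224 genes, 18743 had no count. Alternatives were other scalings, no or a stricter filter, DESeq2 1.42.0, removal of a loess trend with gene length, a replicate block and leaving out each library. Adding the counts of near-identical copies was chosen after seeing the data. Shared 75-mers were counted between GENCODE M21 transcripts, and promoter windows came from RefSeq (GRCm38.p6). The test was first checked on simulated data. No pair of libraries of a group agreed within sampling noise.

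The listed genes and the other lists were chosen with earlier results of these data known. All listed genes, Setd1b, up to 3 genes of smallest p per pathway list and the 3 most abundant per marker list were named, and any others were named after their values were seen.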

Additional observations from a re-analysis of the deposited data

Results flagged for a closer look

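In 4 of 92 groups of 4 libraries, 1 library stood apart from the others, where chance gives about 1 in 20. Ldha was at 1.32 CPM in control replicate 3, with a mean of 0.0367 in the other controls. Mpc2 was at 4.31 CPM in knockout replicate 3, below a mean of 6.95 in the other knockout libraries. Dld was at 221 CPM in control replicate 4, where the other controls had a mean of 105. Gdf9, an oocyte marker, was at 5224 CPM in knockout replicate 1, where the other knockout libraries had a mean of 3036. The cause of these gaps was not tested.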

How the results depend on the processing

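The listed genes called higher numbered 3 and became 5 with library totals only. None was called lower until the length trend was removed, when 1 was. All genes called higher (1503) became 2377 with library totals only, 922 with the length trend removed and 747 at an adjusted p under 0.01, and those called lower (1347) became 510, 2591 and 644. The median of all genes was 0.49 with library totals only. With library totals only, Mpc1 was at 0.13, Mpc2 at 1.91, Pdhb at 0.69 and Dlat at 0.18, with adjusted p of 0.858, 0.0175, 0.0271 and 0.497 (edgeR). With the length trend removed, Pdha1 was at -0.050, Pdhb at -0.40 and Dlat at -0.55. Mpc2 was at 1.46 by DESeq2. Leaving out each library gave 1.36 to 1.67 for Mpc2, -1.67 to 0.76 for Slc16a7, 1.30 to 1.58 for Ldhb, 1.50 to 1.72 for Slc16a1, 1012 to 1597 genes called higher and 837 to 1244 called lower. The causes were not tested.

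Same-numbered libraries had correlated deviations of -0.11 to -0.02, so the numbers pair nothing. With a replicate block, Ldhb was at 1.47, Slc16a1 at 1.62 and Slc16a6 at 5.34, and 861 genes were called lower, while Setd1b (adjusted p = 0.0700, edgeR), Eno1 (0.0586), Bsg (0.0887), Cyp19a1 (0.0572) and Pecam1 (0.0747) lost their calls. A filter at 10 CPM left no value for Mpc1, Mpc2 and Slc16a7, and Ldha was outside the tested genes. Its 20 counts and the low counts of Slc16a7 limit what these libraries can show for either gene.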
